A study of Mus musculus with 42 samples.

Results

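The genes described here drive or restrain the passage of a dividing cell from G1 phase into S phase: the D-type cyclins Ccnd1, Ccnd2 and Ccnd3, the E-type cyclins Ccne1 and Ccne2, the kinases Cdk4, Cdk6 and Cdk2, and the inhibitors Cdkn1b and Cdkn2c. They were listed by name and matched by symbol through the mouse GENCODE annotation. Of the 10 listed genes, 9 were among the 14296 genes with values, and Cdkn2c was not analysed here. The RNA came from W9.5 mouse embryonic stem (ES) cells of the 129X1/SvJ strain background, which differentiated into embryoid bodies without directed signals after leukaemia inhibitory factor (LIF) had been taken away. Poly-A RNA was sequenced with a stranded kit at 21 time points, every 6 h from 0 h to 120 h, with 1 library from replicate A and 1 from replicate B at each, 42 libraries in all. All groups are 1 unmodified line, and the 0 h cells, from the start of differentiation, serve as the starting level. Time after 0 h goes together with LIF withdrawal and growth as embryoid bodies. Their parts in a change from 0 h cannot be told apart.

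In G1 phase, D-type cyclins bind CDK4 or CDK6 and E-type cyclins bind CDK2, and both kinase complexes phosphorylate the retinoblastoma proteins, which frees E2F factors to switch on genes of DNA synthesis. Cdkn1b encodes p27, an inhibitor of the cyclin E complexes, and Cdkn2c encodes p18, an inhibitor of CDK4 and CDK6. Mouse ES cells are known for a short G1 phase with high cyclin E and CDK2 activity, and the G1 phase lengthens as they differentiate. RNA levels were measured here, not proteins or kinase activity. In these bulk samples, fewer cells of a type and less RNA per cell cannot be told apart.

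The libraries held between 10120972 and 51652434 counted reads, with a median of 29692082. The lowest count of any of the 9 genes was 20 reads, for Ccnd2, and the next lowest was 111 reads, for Cdk6. The summed level of 8 pluripotency markers was 5502 and 6021 CPM (read counts scaled to the size of the library) in the A and B libraries at 0 h and 2392 and 2360 CPM at 120 h, while 4 epiblast markers went from 132 and 127 CPM at 0 h to 2009 and 1916 CPM at 48 h. Fibroblast markers, which would mark feeder cells, summed to 24.3 and 28.1 CPM at 0 h, 12.3 and 12 at 6 h, 7.59 and 7.85 at 24 h and 102 and 91.7 CPM at 120 h. Of 4 blood markers 1, Gata1, had values, at no more than 1.81 CPM at the 7 times compared here. From 0 h to 120 h the summed level went from 14.9 and 14.1 to 71.5 and 60.9 CPM for 5 mesoderm markers, from 3.77 and 4.9 to 11.9 and 12.8 for 4 endoderm markers, from 17.8 and 14.4 to 202 and 187 for 4 neuroectoderm markers, and from 17.6 and 16 to 121 and 134 for 3 trophoblast markers. In between, the neuroectoderm sum reached 63.7 and 57.8 at 6 h and the trophoblast sum was down at 2.78 and 2.87 at 24 h. Such sums can rest mainly on 1 gene. At 6 h Nes was at 5.87 and 5.73 log2 CPM, Sox1 at 1.78 and 1.64, Pax6 at 0.52 in both and Zic1 lower. At 0 h Tfap2c was at 3.94 and 3.79, against 1.15 and 1.01 for Krt7 and less for Cdx2. Among the fibroblast markers at 0 h, Thy1 was at 4.27 and 4.47 and the next, Col1a1, at 2.26 and 2.53. The part of such markers in the results below was not tested. Replicate B at 96 h stood apart. Over all genes, its absolute difference from replicate A had a median of 0.41 log2 units, compared with 0.09 to 0.27 for the duplicates of every other time. Over the 2000 most variable genes its distance to the nearest library of replicate A was 54.5 log2 units, and that of 96 h replicate A to the nearest library of replicate B was 38.8. The summed level of 5 mesoderm markers at 96 h was 99.3 CPM in A and 469 CPM in B. The changes from 72 h to 96 h of Ccnd1, Ccnd2, Ccne1, Ccne2, Cdk4, Cdk6 and Cdkn1b, and that of Ccnd1 from 96 h to 120 h, are therefore given below also without each of the 96 h libraries. The 72 h duplicates were also far apart, at 50.5 over the 2000 genes. Nearest to 72 h replicate B was replicate A at 66 h (40.4), and nearest to 72 h replicate A was replicate B at 78 h (34.7). At 72 h Ccnd3 was at 6.21 log2 CPM in A and 5.65 in B, and Cdk6 at 3.73 and 3.11. Changes from or to 72 h carry this spread.

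**Figure D1:**
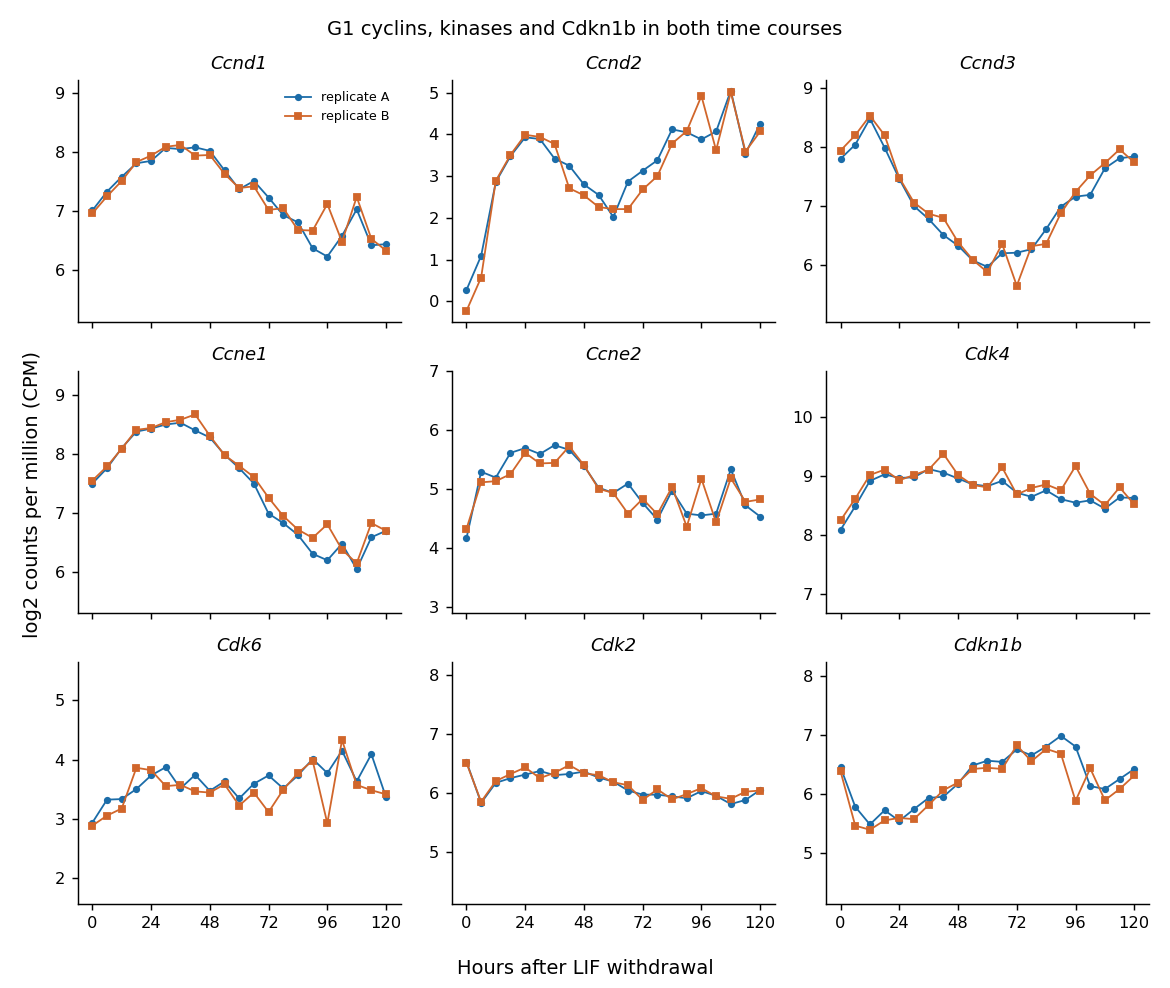
Log2 CPM of each of the 9 genes in replicate A (circles) and replicate B (squares) against hours after LIF withdrawal. The vertical axes are centred on each gene and have the same span, except the wider one of Ccnd2. Ccnd1 is highest between 30 h and 48 h and Ccne1 between 30 h and 42 h. Ccnd3 is lowest at 60 h and 72 h, and Cdkn1b is lowest at 12 h. The 96 h library of replicate B lies off the course of its neighbours for Ccnd1, Ccnd2, Ccne1, Ccne2, Cdk4, Cdk6 and Cdkn1b.

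Over the whole course, 8 of the 9 genes varied among the 21 time points (F-test of limma, a linear model fitted across all genes, adjusted p < 0.0001), where 74.6% of all genes tested did. The exception was Cdk6 (adjusted p = 0.000858). The mean courses spanned between 0.68 for Cdk2 and 5.01 for Ccnd2 from their lowest to their highest time point, in log2 units. The median span was 1.45 for the 9 genes and 1.50 for all genes. Steps of 6 h passed the threshold 3 times, as Ccne2 and Cdk2 between 0 h and 6 h and Ccnd2 between 6 h and 12 h. Of all gene-by-step tests 1.77% passed.

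The longer comparisons follow the course in windows and then set 48 h and 120 h against the start. From 0 h to 6 h, 2 of the 9 genes passed the threshold, 1 up (Ccne2) and 1 down (Cdk2), against 26.3% of all genes. From 6 h to 24 h, 2 rose (Ccnd2 and Cdk2), against 11.4% of all genes that passed in either direction. From 24 h to 48 h, 1 fell (Ccnd3), against 8.97%. The median log2 change of the 9 genes was 0.28, 0.53 and -0.14 in these 3 windows, beside medians of -0.05, -0.01 and 0.02 over all genes.

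From 48 h to 72 h, 3 of the 9 genes fell (Ccnd1, Ccne1 and Cdk2) and none rose, against 9.38% of all genes in either direction. The median log2 change of the 9 genes in this window was -0.42, and that of all genes 0.01. From 72 h to 96 h, 1 rose (Ccnd3), against 3.39%. Without 96 h replicate A the count was 3 (Ccnd2, Ccnd3 and Cdkn1b), and without 96 h replicate B it was 3 with other members (Ccnd1, Ccnd3 and Ccne1). From 96 h to 120 h, limma called 0 of the 9 genes, against 1.94% of all genes. At an unadjusted p below 0.05 the count was 2, with voom precision weights it was 0, and without 96 h replicate A it was 1 (Ccnd1). The share of all genes was not counted at the unadjusted p, with precision weights or with a library left out. The medians over the 9 genes were 0.07 and -0.01 in these last windows.

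Against the start, 6 of the 9 genes had changed at 48 h, against 30.4% of all genes. Ccnd1, Ccnd2, Ccne1, Ccne2 and Cdk4 were higher and Ccnd3 was lower. By 120 h, 3 of the 9 had changed against 0 h, with Ccnd2 higher and Ccne1 and Cdk2 lower, against 23% of all genes. The median log2 change of the 9 genes was 0.77 at 48 h and -0.05 at 120 h. Both comparisons share the 0 h libraries.

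**Figure D2:**
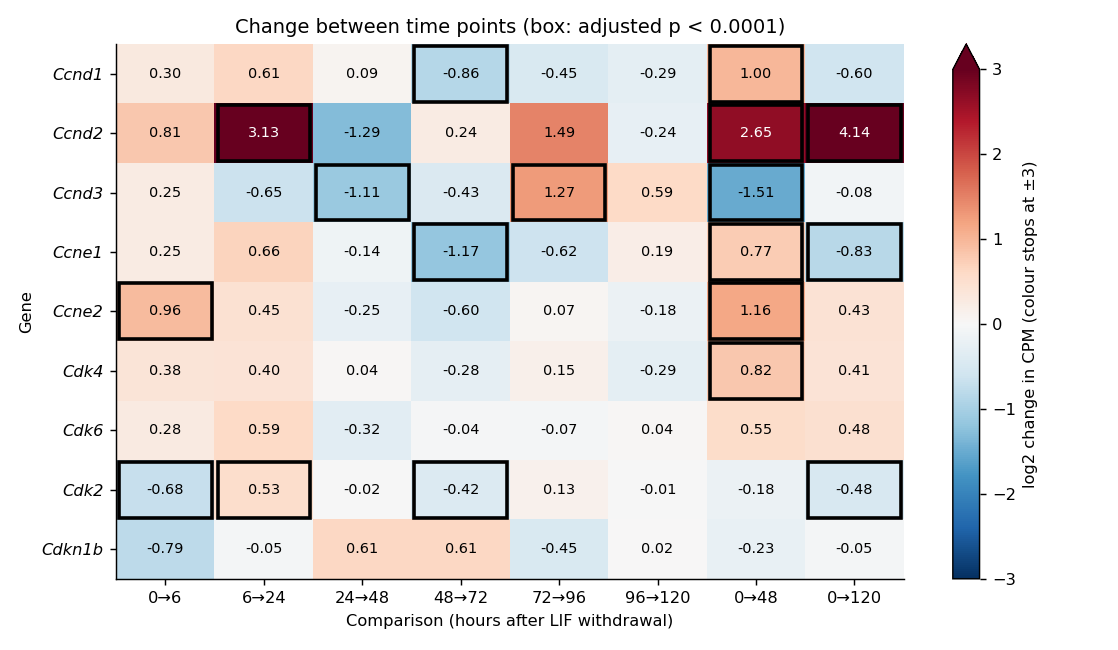
Log2 change in CPM of each gene (rows) in the 8 comparisons (columns, in hours after LIF withdrawal). Red is higher and blue is lower at the later time, and boxes mark changes with an adjusted p below 0.0001. From 0 h to 48 h 6 genes are boxed, from 96 h to 120 h none is.

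Levels can be set side by side between genes only per length, and the order used CPM per kilobase (kb) of exon on a log2 scale, averaged over the 42 libraries. Cdk4 was highest at 7.10 ± 0.26 (SD, n = 42), followed by Ccne1 at 6.06 ± 0.83 and Ccnd1 at 5.04 ± 0.58. Each of these was above the next by 1.03 or more, which exceeded the larger SD of the pair. Cdkn1b (4.0 ± 0.44), Ccnd3 (3.95 ± 0.79), Cdk2 (3.50 ± 0.20) and Ccne2 (3.22 ± 0.43) formed a middle group in which no neighbour differed beyond its spread. Ccnd2 (-0.07 ± 1.17) and Cdk6 (-0.26 ± 0.33) were lowest and did not differ from each other beyond their spread, but lay 3.28 below Ccne2. These SDs are over time as well as over duplicates, and the order of the means did not hold at every time: Ccnd2 was below Cdk6 at 0 h (-2.96 in A and -3.47 in B against -0.87 and -0.93) and above it at 108 h (1.82 and 1.78 against -0.18 and -0.23). With the longest transcript in place of all exons, Ccnd3 ranked 4, Cdk2 ranked 5 and Cdkn1b ranked 6, and the other ranks were kept. The separations changed too. Ccnd1 at 5.37 was then above Ccnd3 at 5.14 by less than the SD of Ccnd3 (0.79). Cdkn1b was then above Ccne2 (3.43) by more than the larger SD of the pair (0.44). The separations of Cdk4 from Ccne1 and of Ccne1 from Ccnd1 were kept.

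**Figure D3:**
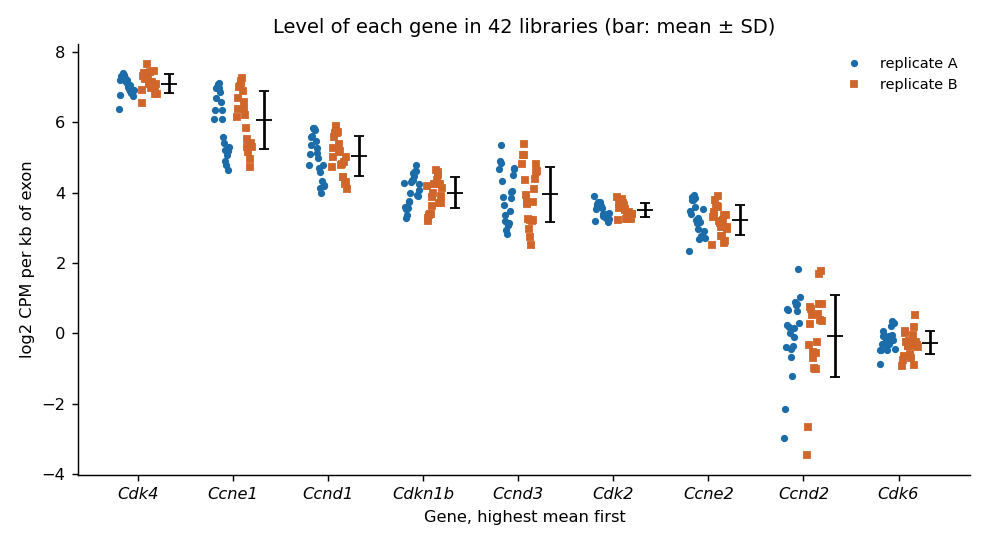
Log2 CPM per kb of exon of each gene in the 21 libraries of replicate A (circles) and the 21 of replicate B (squares), with the mean and SD over all 42 as a bar beside them. Genes are ordered by their mean. Cdk4 spans 6.38 to 7.67, and Ccnd2 spans -3.47 to 1.82.

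Ccnd1, cyclin D1, is the D-type cyclin best known as a target of mitogen signals. The gene (ENSMUSG00000070348.4) lies at chr7:144929931-144939925 on the minus strand of GRCm38 and overlaps 1771 bases of LTO1 on the other strand. How strand was used in the counting is not given, so reads in this and the overlaps named below could belong to either gene. Its level was 7.01 (A) and 6.96 (B) log2 CPM at 0 h and 8.02 and 7.95 at 48 h. Both 48 h libraries were above both 0 h libraries, a log2 change of 1.0 (SE 0.15, 2-fold, adjusted p = 3.13e-06). The mean was highest at 36 h, with 8.05 in A and 8.12 in B.

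After 48 h, Ccnd1 came down to 7.23 (A) and 7.02 (B) at 72 h. The log2 change of -0.86 (SE 0.15, adjusted p = 7.75e-05) passed narrowly, with no overlap of the duplicates. Leaving out either library of 48 h or of 72 h gave changes between -0.76 and -0.96 that no longer passed (adjusted p = 0.00031 to 0.0031). With quantile normalization it was -0.59 (adjusted p = 0.0039), and with summed counts alone as the library size -0.71 (adjusted p = 0.000356). For the change from 0 h to 48 h, the adjusted p was 0.000136 with quantile normalization (log2 change 0.75), 0.000135 without 0 h replicate B and 0.000152 without 48 h replicate A.

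At 96 h the duplicates of Ccnd1 disagreed, with 6.23 in A and 7.12 in B. The log2 change from 72 h was -0.45 (SE 0.15, adjusted p = 0.0285) with both, -0.01 (adjusted p = 0.976) without 96 h replicate A and -0.90 (adjusted p = 2.51e-06) without 96 h replicate B. From 96 h to 120 h, where the level was 6.44 and 6.33, the change of -0.29 (adjusted p = 0.203) became -0.73 (adjusted p = 2.92e-05) without 96 h replicate A and 0.16 (adjusted p = 0.341) without 96 h replicate B. At 120 h the level differed from that of 0 h by -0.60 in log2 units (adjusted p = 0.00183).

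Ccnd2, cyclin D2, had the widest course of the set. On the other strand it overlaps Gm43126 (994 bases) and 9330179D12Rik (2805 bases), which had no values. The gene (ENSMUSG00000000184.9, chr6:127125162-127152193, minus strand) was counted at 28 reads (A) and 20 reads (B) at 0 h, or 0.27 and -0.23 log2 CPM. At 6 h it stood at 1.09 and 0.57, at 12 h at 2.86 and 2.89, and at 24 h at 3.93 and 3.99. Every library of a later one of these times was above every library of an earlier one. The step from 6 h to 12 h was 2.05 on the log2 scale (SE 0.26, 4.13-fold, adjusted p = 1.76e-06), and the change from 6 h to 24 h was 3.13 (SE 0.26, 8.76-fold, adjusted p = 3.35e-10).

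The course of Ccnd2 then turned down and up again. It was 2.80 (A) and 2.54 (B) at 48 h and lowest after that at 60 h, with 2.02 and 2.21. The change from 24 h to 48 h was -1.29 (SE 0.26, adjusted p = 0.000384), with both 48 h libraries below both 24 h libraries, and did not pass. From 72 h (3.13 and 2.68) to 96 h (3.88 and 4.92) the change was 1.49 (SE 0.26, adjusted p = 0.000153). With the replicate letter as a block it passed (adjusted p = 7.21e-05), which made 2 genes called in that window in place of 1. The change was 2.01 (adjusted p = 3.65e-06) without 96 h replicate A and 0.97 (adjusted p = 0.0113) without 96 h replicate B.

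Both courses of Ccnd2 reached their maximum at 108 h, with 5.05 in A and 5.01 in B. At 120 h the level was 4.26 and 4.07, or 4.14 above 0 h on the log2 scale (SE 0.26, 17.7-fold, adjusted p = 3.4e-13). The change from 0 h to 48 h was 2.65 (6.27-fold, adjusted p = 2.26e-09). No left-out library ended either call.

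Ccnd3, cyclin D3, moved the other way from Ccnd1 between 0 h and 48 h. The gene (ENSMUSG00000034165.10, chr17:47505051-47599691, plus strand) has a processed pseudogene, Ccnd3-ps, at chr4:139345300-139346180, so that part of its reads could be shared, and it overlaps 361 bases of Bysl on the other strand. Its level was 7.80 (A) and 7.94 (B) at 0 h, and highest at 12 h, with 8.48 and 8.53. It was 7.46 and 7.48 at 24 h and 6.33 and 6.39 at 48 h. Both 48 h libraries were below both 24 h libraries, a log2 change of -1.11 (SE 0.13, adjusted p = 1.94e-07).

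Against 0 h, Ccnd3 at 48 h was 2.85-fold lower (log2 change -1.51, SE 0.13, adjusted p = 1.79e-10). The lowest means were at 60 h and 72 h, where A had 5.97 and 6.21 and B had 5.88 and 5.65. By 96 h it was back at 7.16 and 7.24, a rise of 1.27 over 72 h (SE 0.13, 2.41-fold, adjusted p = 6.79e-08). The 96 h libraries of A and B were close for this gene, and no left-out library ended the call. At 120 h, with 7.84 and 7.74, it overlapped the 0 h libraries (log2 change -0.08, 95% interval -0.35 to 0.19, adjusted p = 0.629).

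The make-up of the D-type cyclin RNA therefore shifted, given here as the share of each gene in their summed CPM per kb of exon, as a description. At 0 h, Ccnd1 made up 51.7% (A) and 48.5% (B), and Ccnd3 48.1% and 51.3%. At 48 h, Ccnd1 made up 84.7% and 83.8%, and Ccnd3 14.1% and 15.2%. At 120 h, Ccnd3 led with 56.0% and 56.4%, and Ccnd1 held 39.6% and 39.5%. Ccnd2 stayed the minor one throughout, from 0.243% and 0.166% at 0 h to at most 6.53% in A at 108 h and 6.43% in B at 96 h. In all libraries from 18 h to 90 h Ccnd1 held the largest share by all exons. By longest transcript this window was 24 h to 84 h. Ccnd3 then led at 18 h (51.7% and 54.8%) and at 90 h (57.1% and 50.5%).

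The summed D-type level was 52.9 and 54.6 CPM per kb at 0 h, 82 and 81.6 at 12 h, 65 and 62.8 at 48 h and 33.7 and 36.8 at 90 h. The highest value was at 12 h in A and at 18 h in B, and the lowest was at 90 h in A and at 84 h in B. The shares depend on the length used: by longest transcript, the mean share of Ccnd3 was 64.1% at 0 h, 23.7% at 48 h and 69.5% at 120 h.

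**Figure D4:**
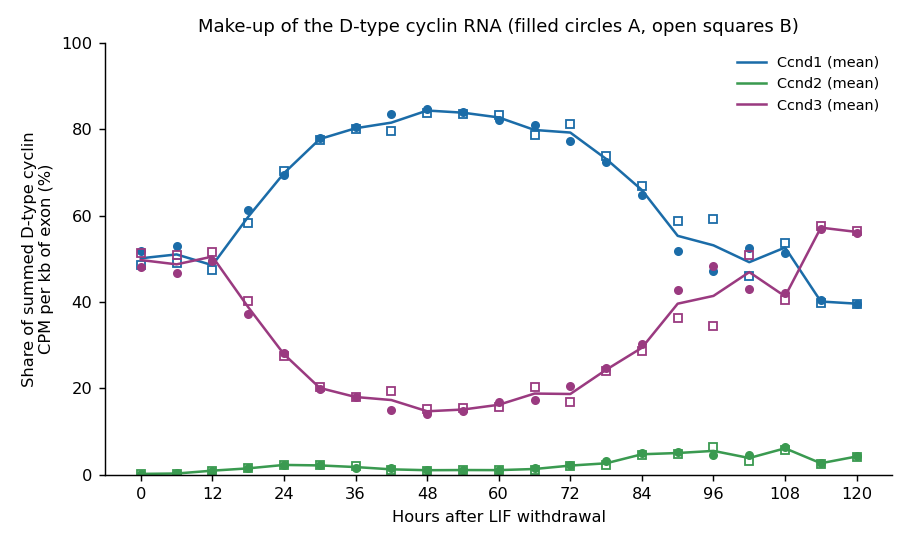
Share of Ccnd1, Ccnd2 and Ccnd3 in their summed CPM per kb of exon, in percent, against hours after LIF withdrawal. Filled circles are replicate A, open squares are replicate B and lines are their mean. The means of Ccnd1 and Ccnd3 start level near 50.1% and 49.7%, part to 84.3% and 14.7% at 48 h, and cross again after 108 h. In single libraries Ccnd3 is already above Ccnd1 at 96 h in A (48.3% against 47.1%) and at 102 h in B (50.8% against 46%).

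Ccne1, cyclin E1, was the highest cyclin of the set per kb of exon at 20 of the 21 times in both replicates. The exception was 108 h, where Ccnd1 was at 4.80 (A) and 5.01 (B) log2 CPM per kb and Ccne1 at 4.63 and 4.74. This depends on the length used: Ccnd3 has 8775 bases of exon but 3858 in its longest transcript, and Ccne1 has 2662 and 2000. By longest transcript, Ccnd3 was above Ccne1 and Ccnd1 in both replicates at 108 h, 114 h and 120 h. The Ccne1 gene (ENSMUSG00000002068.10, chr7:38097984-38107534, minus strand) was at 7.50 (A) and 7.55 (B) log2 CPM at 0 h, 7.76 and 7.79 at 6 h and 8.43 and 8.44 at 24 h. The change from 6 h to 24 h was 0.66 (SE 0.13, adjusted p = 0.000187), with the 24 h libraries above the 6 h ones. It did not pass, but did with the replicate block (adjusted p = 2.05e-05). At 48 h, with 8.28 and 8.31, it was above 0 h by 0.77 (SE 0.13, 1.7-fold, adjusted p = 1.05e-05).

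From 48 h to 72 h Ccne1 fell to 6.99 (A) and 7.26 (B), a log2 change of -1.17 (SE 0.13, 2.25-fold lower, adjusted p = 8.13e-08), which no left-out library ended. It was 6.20 and 6.81 at 96 h, a change of -0.62 from 72 h (adjusted p = 0.000828), which was -0.31 (adjusted p = 0.0393) without 96 h replicate A and -0.93 (adjusted p = 2.79e-06) without 96 h replicate B. At 120 h both libraries were at 6.70, below both 0 h libraries (log2 change -0.83, SE 0.13, adjusted p = 4.61e-06). The calls against 0 h were lost when any 1 of the 4 libraries of either comparison was left out, with adjusted p from 0.000193 to 0.000371 for 48 h and from 0.000104 to 0.000208 for 120 h. With quantile normalization the change from 0 h to 48 h was 0.49 and did not pass (adjusted p = 0.00151).

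Ccne2, cyclin E2, rose within the first 6 h. The gene (ENSMUSG00000028212.10, chr4:11191351-11204779, plus strand) overlaps 5622 bases of Ints8 on the other strand. It was lowest at 0 h, with 4.16 (A) and 4.32 (B), and stood at 5.29 and 5.11 at 6 h. Both 6 h libraries were above both 0 h libraries, a log2 change of 0.96 (SE 0.16, 1.95-fold, adjusted p = 1.16e-05). Without 0 h replicate A, 0 h replicate B or 6 h replicate A it was 0.88, 1.04 or 0.87 and did not pass (adjusted p = 0.000645, 0.000117 and 0.000708), nor did it with summed counts alone as the library size (0.74, adjusted p = 0.000217).

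At 48 h Ccne2 was at 5.39 and 5.40, which was 1.16 above 0 h (SE 0.16, 2.23-fold, adjusted p = 6.37e-07) under every left-out library. From 48 h to 72 h (4.76 and 4.83) the change was -0.60 (adjusted p = 0.00378). At 96 h it was 4.55 and 5.17, a change from 72 h of 0.07 with both libraries, 0.38 (adjusted p = 0.0725) without 96 h replicate A and -0.25 (adjusted p = 0.297) without 96 h replicate B. By 120 h, at 4.53 and 4.82, it was 0.43 above 0 h (95% interval 0.10 to 0.76, adjusted p = 0.025). Per kb, Ccne1 exceeded Ccne2 at every time: by 3.73 (A) and 3.62 (B) on the log2 scale at 0 h, and by 1.11 and 1.37 at 108 h, where the ratio was smallest.

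Cdk4, a kinase partner of the D-type cyclins, was the most abundant gene of the set. It (ENSMUSG00000006728.6, chr10:127063534-127067920, plus strand) overlaps 641 bases of Tspan31 on the other strand. Its level was 8.08 (A) and 8.24 (B) at 0 h, 8.48 and 8.61 at 6 h, 8.91 and 9.01 at 12 h and 8.95 and 9.01 at 48 h. The 0 h libraries were the lowest of all 42. The change from 0 h to 48 h was 0.82 (SE 0.13, 1.77-fold, adjusted p = 5.01e-06), while those from 0 h to 6 h (0.38, adjusted p = 0.0141) and from 6 h to 24 h (0.40, adjusted p = 0.0178) did not pass. The 0 h to 48 h call was lost without 0 h replicate A or either 48 h library (adjusted p = 0.000102 to 0.000389), and with quantile normalization, which moved the change to 0.44 (adjusted p = 0.00149).

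After 48 h no comparison of Cdk4 passed. It was 8.71 and 8.68 at 72 h, 8.54 and 9.16 at 96 h, and 8.62 and 8.51 at 120 h, which was 0.41 above 0 h (95% interval 0.14 to 0.67, adjusted p = 0.0108). From 72 h to 96 h the log2 change of 0.15 was 0.47 (adjusted p = 0.00324) without 96 h replicate A and -0.16 (adjusted p = 0.337) without 96 h replicate B.

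Cdk6, the other kinase of the D-type cyclins, was far lower, at 2.93 (A) and 2.88 (B) log2 CPM at 0 h. It (ENSMUSG00000040274.5) lies at chr5:3341485-3531008 on the plus strand and overlaps Gm17590 (8013 bases) and Gm42435 (1448 bases), without values, on the other strand. At 48 h it was 3.47 and 3.44 and at 120 h 3.36 and 3.41, all above the 0 h libraries. The log2 changes of 0.55 (SE 0.21, adjusted p = 0.0256) and 0.48 (SE 0.21, adjusted p = 0.0572) did not pass. Per kb, Cdk4 exceeded Cdk6 by 164-fold at 0 h, 199-fold at 48 h and 156-fold at 120 h, with the smallest ratio, 90.2-fold, at 102 h. At 96 h Cdk6 was 3.77 in A and 2.92 in B, and its change from 72 h was -0.50 (adjusted p = 0.0624) without 96 h replicate A and 0.36 (adjusted p = 0.232) without 96 h replicate B.

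Cdk2, the partner of cyclins E and A, had the narrowest course and the tightest duplicates, with a root mean square SD of 0.05 between A and B. The gene (ENSMUSG00000025358.9, chr10:128697939-128705031, minus strand) overlaps 837 bases of Pmel on the other strand. It was 6.53 (A) and 6.51 (B) at 0 h and 5.83 and 5.85 at 6 h. Both courses had their highest value at 0 h, and the 6 h libraries were 1.6-fold lower (log2 change -0.68, SE 0.07, adjusted p = 1.65e-08), whichever library was left out. At 24 h it was back up at 6.31 and 6.43, a log2 change of 0.53 (SE 0.07, adjusted p = 2.35e-06). Without 6 h replicate A or 24 h replicate B that change was 0.51 or 0.47 (adjusted p = 0.000127 and 0.000322).

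From 48 h (6.36 and 6.33) to 72 h (5.97 and 5.88) Cdk2 fell by 0.42 in log2 units (SE 0.07, adjusted p = 7.04e-05). Without any 1 of the 4 libraries it did not pass (adjusted p = 0.000237 to 0.00216), nor with quantile normalization (-0.28, adjusted p = 0.00485) or summed counts alone (-0.27, adjusted p = 0.00743). At 120 h, with 6.05 and 6.04, it was below 0 h (log2 change -0.48, SE 0.07, adjusted p = 4.84e-06), and did not pass when any 1 of those libraries was left out (adjusted p = 0.000133 to 0.000207).

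The promoters of the 3 kinases are printed as a description, and their part in the RNA levels was not tested. RefSeq (GRCm38.p6) gave a start region for 6 of the 9 genes, in 7 entries, and the 250 bases before each start were searched on both strands for the E-box CACGTG, which MYC with MAX can bind, and for the E2F motifs TTTCCCGC, TTTGGCGC, TTTCGCGC and TTTGCCGC. Capitals mark a match. Cdk4 lies at chr10:127063285-127063534 (plus strand), Cdk6 at chr5:3343643-3343892 (plus strand) and Cdk2 at chr10:128705052-128705301 (minus strand). The Cdk6 window lies inside the gene as GENCODE gives it, which begins at 3341485.
Cdk4: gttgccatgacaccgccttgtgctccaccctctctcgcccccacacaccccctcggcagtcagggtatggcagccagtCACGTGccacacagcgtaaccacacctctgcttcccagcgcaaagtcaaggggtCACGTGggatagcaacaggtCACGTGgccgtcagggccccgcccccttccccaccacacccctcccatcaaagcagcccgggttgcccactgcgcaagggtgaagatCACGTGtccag
Cdk6: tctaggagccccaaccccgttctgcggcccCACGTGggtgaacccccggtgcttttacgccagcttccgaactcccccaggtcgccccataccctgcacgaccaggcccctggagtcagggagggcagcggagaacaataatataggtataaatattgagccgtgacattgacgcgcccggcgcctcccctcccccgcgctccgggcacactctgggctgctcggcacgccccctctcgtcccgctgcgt
Cdk2: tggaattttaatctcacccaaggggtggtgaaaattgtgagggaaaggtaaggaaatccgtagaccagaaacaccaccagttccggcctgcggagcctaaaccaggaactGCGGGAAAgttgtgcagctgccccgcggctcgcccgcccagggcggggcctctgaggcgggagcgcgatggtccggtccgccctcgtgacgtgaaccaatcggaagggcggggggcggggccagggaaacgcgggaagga

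The Cdk4 window held 4 copies of CACGTG, beginning 172, 118, 98 and 11 bases before the start. Of all 32817 start regions of the same length, 6.02% held at least 1 copy and 7 held 4 or more. The Cdk6 window held 1 copy, 220 bases before the start. The Cdk2 window held 1 E2F motif, GCGGGAAA on the strand shown, 140 bases before the start, where 1.86% of all windows held 1 of the 4. The windows of Ccnd3, Ccne1 and Cdkn1b held neither. No window held both motifs, and a match describes letters only.

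Cdkn1b, which encodes the inhibitor p27, was lowest at 12 h, the time at which Ccnd3 was highest. The gene (ENSMUSG00000003031.8) lies at chr6:134920401-134925513 on the plus strand. Its level was 6.45 (A) and 6.38 (B) at 0 h, 5.78 and 5.46 at 6 h and 5.48 and 5.39 at 12 h. The 6 h libraries were below the 0 h libraries, a log2 change of -0.79 (SE 0.17, adjusted p = 0.000244). This did not pass, but did with the replicate block (adjusted p = 6.11e-05).

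Cdkn1b was 5.54 and 5.59 at 24 h, 6.17 and 6.19 at 48 h and 6.75 and 6.82 at 72 h, each pair above the one before. The 24 h windows up to 48 h and up to 72 h each gave a log2 change of 0.61 (SE 0.17, adjusted p = 0.0064 and 0.00529), neither of which passed. At 96 h it was 6.80 in A and 5.88 in B, and the change from 72 h was -0.45 (adjusted p = 0.0474) with both libraries, -0.90 (adjusted p = 1.4e-05) without 96 h replicate A and 0.01 (adjusted p = 0.96) without 96 h replicate B. At 120 h (6.42 and 6.31) it overlapped the 0 h libraries (log2 change -0.05, 95% interval -0.40 to 0.29, adjusted p = 0.812). Over the course it varied past the threshold (F-test, adjusted p = 1.18e-08), although no window passed.

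Around 108 h, Ccnd1, Ccnd2 and Ccne2 were higher in both replicates than at the times on either side. Ccnd2 went from 4.07 (A) and 3.62 (B) at 102 h to 5.05 and 5.01 at 108 h and 3.54 and 3.59 at 114 h, with log2 steps of 1.19 (adjusted p = 0.00221) and -1.47 (adjusted p = 0.000272). Ccnd1 went from 6.58 and 6.48 to 7.03 and 7.24 and back to 6.42 and 6.53, and Ccne2 from 4.58 and 4.43 to 5.33 and 5.18 and to 4.72 and 4.78. The 108 h libraries of these 3 genes did not overlap those of 102 h or 114 h. How many of all genes did the same was not counted. None of the steps of these 3 genes passed the threshold, with adjusted p from 0.000272 to 0.0254. Ccne1 and Cdk4 went the other way, also without overlap. Ccne1 was at its minimum at 108 h, with 6.05 and 6.15. Cdk4 was at 8.58 and 8.69 at 102 h, 8.44 and 8.50 at 108 h and 8.63 and 8.80 at 114 h.

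Other CDK inhibitors followed courses of their own. Cdkn1c, which encodes p57, was 4.74 (A) and 4.93 (B) at 6 h and 7.81 and 7.95 at 24 h, a rise of 3.04 on the log2 scale (SE 0.30, 8.22-fold, adjusted p = 5.32e-09), and at 48 h it was still 1.82 above 0 h (adjusted p = 7.66e-06). Cdkn1a, which encodes p21, was 5.91 and 6.02 at 0 h, 4.74 and 4.80 at 48 h and 7.13 and 7.11 at 120 h. Its changes of -1.19 to 48 h (adjusted p = 0.000421) and of 1.16 to 120 h (adjusted p = 0.000716) did not pass. Cdkn2b, which encodes p15, rose from -0.81 and -0.23 at 0 h to 1.93 and 1.98 at 120 h (log2 change 2.48, SE 0.38, adjusted p = 4.2e-06). Of the 5 other inhibitors listed, these were the only calls from 6 h to 24 h, from 0 h to 48 h and from 0 h to 120 h, with 1 gene up in each, against 11.4%, 30.4% and 23% of all genes. From 0 h to 6 h limma called 0 of the 5, against 26.3% of all genes, and 0 at an unadjusted p below 0.05. For the latter the share of all genes was not counted.

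Of the 13 genes of the Rb and E2F family, the pocket proteins that G1 kinases phosphorylate and the factors these hold, 3 were higher and 3 lower at 48 h than at 0 h, where 30.4% of all genes had changed. E2f2 fell the most, from 5.05 and 5.08 to 2.63 and 2.56 (log2 change -2.47, SE 0.15, adjusted p = 1.95e-13). Rbl2, which encodes the pocket protein p130, fell by 1.52 (adjusted p = 4.24e-09) and E2f1 by 1.20 (adjusted p = 7.54e-10), while E2f3, E2f6 and E2f7 rose, E2f7 by 1.0 (adjusted p = 1.27e-06). The genes of the other pocket proteins, Rb1 (log2 change -0.19, adjusted p = 0.13) and Rbl1 (-0.55, adjusted p = 0.00302), did not pass. From 48 h to 72 h 1 of the 13 fell, E2f4, by 1.04 (adjusted p = 1.19e-05), against 9.38% of all genes. At 120 h 1 was higher and 4 were lower than at 0 h, against 23% of all genes.

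Among 8 genes of the ligases that degrade p27 and G1 cyclins, 4 were higher at 48 h than at 0 h and none was lower, against 30.4% of all genes in either direction. Cul1, a scaffold of these ligases, rose by 1.36 (SE 0.10, 2.57-fold, adjusted p = 4.57e-12), Cks1b, a cofactor of p27 breakdown, by 0.97 (adjusted p = 2.71e-05), and Cul3 by 0.76 (adjusted p = 3.01e-07). Skp2, which recognises p27, rose by 0.70 (adjusted p = 1.48e-05), from 6.37 and 6.23 to 7.02 and 6.97, and fell by 0.67 from 48 h to 72 h (adjusted p = 8.07e-05). Of 4 genes of CDK activation, Cdk7 and Cdc25a rose to 48 h, and Cdc25a, which removes an inhibiting phosphate from CDK2, fell by 0.74 from 48 h to 72 h (adjusted p = 2.74e-08).

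In the MYC family of 4 genes, Myc rose from 4.55 (A) and 4.43 (B) at 0 h to 7.57 and 7.71 at 6 h, a log2 change of 3.15 (SE 0.34, 8.88-fold, adjusted p = 1.42e-08). At 48 h it was 7.40 and 7.32 and at 72 h 5.77 and 5.76, a change of -1.59 that did not pass (adjusted p = 0.000559). Mycn rose by 1.31 from 0 h to 48 h (adjusted p = 2.99e-07) and fell by 1.26 from 48 h to 72 h (adjusted p = 2.35e-06). From 48 h to 72 h, the window in which Ccnd1, Ccne1 and Cdk2 fell, 2 of 5 S and M phase cyclins and kinase genes fell (Ccna2 by 0.47 and Ccnf by 0.75), as did 3 of 9 proliferation markers (Mcm2 by 0.67, Mcm7 by 0.51 and Mcm6 by 0.48), against 9.38% of all genes in either direction. The part of these lists in the change of the G1 genes was not tested.

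Among the members, Pearson's r over the 21 mean values was highest for Ccnd1 with Ccne1, at 0.92 (0.93 within A and 0.88 within B). Ccnd1 with Ccne2 gave 0.82. Ccnd2 and Ccnd3 had r of -0.17 each with Ccnd1, and Cdkn1b had -0.70 with Ccne2 and -0.64 with Ccnd3. Over all genes whose mean was 0 log2 CPM or more, the courses most like that of Ccne1 were those of L3mbtl2 (r = 0.99) and Dnmt3l (r = 0.98), and those most like Ccnd1 were Cass4 and Zfp534 (r = 0.97 each). For Ccnd3 they were AU015836 (0.97) and Nrbp1 (0.96), for Cdkn1b Ccng2 (0.97) and Mfsd9 (0.96), and for Cdk2 Fam178b (0.94) and Tk1 (0.93). Cdk4 was nearest to Eef1akmt1 (0.94) and Nme1 (0.92), Ccne2 to Cops3 and 4930453N24Rik (0.91 each) and Ccnd2 to Hecw2 (0.90) and Arhgap42 (0.86). Cdk6 had no close match, with r of 0.73 for Ptk2 and 0.72 for Gm2000. All these points share libraries and a slow trend in time, and r is a description.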

How the data were processed

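Gene expression was measured in the 42 libraries by paired-end sequencing of poly-A RNA, in duplicate courses A and B. The authors used Trim Galore! for trimming, Tophat2 for alignment to mm10, HTSeq for counts per gene of GENCODE vM2, edgeR for library size and voom for the transformation; versions and the strand setting of the counting are not given in the sources used here. The values deposited by the authors are log2 CPM with the offset of 0.5 reads that voom adds, for 14296 genes per library. All values correspond to whole reads with a tolerance of 2.91e-08, and the depths were taken from these reads. A level of 3 reads corresponded to 0.0571 to 0.316 CPM, depending on the library.

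Identifiers were matched to GENCODE vM21 on GRCm38, the same assembly as mm10, for 14177 genes. Because the strand setting is not given, reads of genes that overlap on opposite strands may not be told apart. The deposited values were fitted with limma 3.58.1 in R 4.3.3 (lmFit, eBayes, trended prior), the 21 time points forming 1 factor over all 42 libraries, which left 21 residual degrees of freedom. P-values were adjusted by Benjamini-Hochberg over all 14296 genes within each contrast, and adjusted p < 0.0001, the threshold of the study, was the limit for a change. SE is the standard error of a log2 change. The authors call the duplicates biological. Nothing in the labels says how far the cultures of the duplicates were kept apart, so p-values measure the spread between these libraries.

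The letters A and B name 2 courses in the labels, and a fit with the letter as a block was run as an alternative. Deviations of libraries with the same letter correlated with a mean r of 0.0795 (from -0.474 to 0.598, with 47.1% over 0.1, over 210 pairs of time points).

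The genes and gene lists were chosen with earlier results of these data known. Named genes are all listed members, up to 3 genes with the largest change past the threshold per pathway list and comparison, Cdkn1a, Cdkn1c, Rb1, Rbl1, Rbl2, Myc and Mycn, and the 2 genes with the most similar mean course per member. The lists covered other CDK inhibitors, the Rb and E2F family, CDK activation, degradation of p27 and G1 cyclins, S and M phase cyclins, the MYC family, proliferation and cell type markers. The script was tested on simulated data. Alternatives were another scaling (summed counts alone, quantile normalization), another offset of 2 reads, precision weights, no trend, a filter on low values and another threshold. Each library of the times in the longer comparisons was also left out in turn. The F-test and the 6 h steps as a set were not repeated that way. Python 3.11.15, numpy 2.4.6, pandas 2.3.3 and matplotlib 3.10.9 were used.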

Additional observations from a re-analysis of the deposited data

How the results depend on the processing

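No call turned its direction under any alternative. With an adjusted p below 0.05 in place of 0.0001, the number of the 9 genes called was 5 from 0 h to 6 h, 8 from 6 h to 24 h, 3 from 24 h to 48 h, 6 from 48 h to 72 h, 5 from 72 h to 96 h, 1 from 96 h to 120 h and 6 from 0 h to 120 h, and 20 steps of 6 h passed. The share of all genes called was not counted at 0.05 or under any other alternative. These numbers and the counts below therefore have no background beside them. From 48 h to 72 h the count of 3 at 0.0001 dropped to 1, Ccne1, with quantile normalization, with summed counts alone as the library size and with adjustment over all 27 contrasts together. From 0 h to 48 h it dropped from 6 to 3 with quantile normalization, which ended the calls of Ccnd1, Ccne1 and Cdk4. From 72 h to 96 h it was 2 with the replicate block and 2 with voom precision weights. The block changed no other call than those of Cdkn1b, Ccne1 and Ccnd2 given with the results. Summed counts alone moved the median log2 change of all genes to -0.27 from 0 h to 6 h, 0.16 from 48 h to 72 h and -0.18 from 0 h to 48 h. Under it Ccne2 no longer passed from 0 h to 6 h (0.74, adjusted p = 0.000217), and Cdkn1b did (-1.01, adjusted p = 3.94e-05).

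Leaving out 1 library leaves a time point with 1, assumed to vary like the others, and changed the counts to between 1 and 2 from 0 h to 6 h and from 6 h to 24 h, to 1 from 48 h to 72 h, to between 1 and 3 from 72 h to 96 h, to between 0 and 1 from 96 h to 120 h, to between 3 and 4 from 0 h to 48 h, and to 1 from 0 h to 120 h. From 24 h to 48 h it stayed at 1. In the order by level per kb, 6 of 9 genes kept their rank by longest transcript and between 7 and 9 with 1 replicate alone. The mean share of Ccnd3 in the D-type cyclins was 49.7% at 0 h, 14.7% at 48 h and 56.2% at 120 h by all exons, and 64.1%, 23.7% and 69.5% by longest transcript, with 57.6% at 120 h after quantile normalization. With 1 replicate alone it ranged from 48.1% to 51.3%, from 14.1% to 15.2% and from 56.0% to 56.4%.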
